A study of Mus musculus with 6 samples.

Results

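The alcohol, aldehyde and aldo-keto dehydrogenases were studied as 39 genes out of the 16123 genes listed with a value for liver of wild-type (WT) mice and mice lacking *Txndc5* (KO). They were chosen by symbol only: every gene named Adh, Aldh or Akr followed by a digit, leaving out *Aldh1a1* and *Aldh1a2*, which belong to retinoid handling, and the pseudogene *Adh6-ps1*. This gave 4 alcohol dehydrogenases (ADH), 18 aldehyde dehydrogenases (ALDH) and 17 aldo-keto reductases (AKR). The rule used no measured value, although earlier results of these data were known when it was set. The question was how much RNA of each of these enzymes the fasted liver held and whether the level depended on *Txndc5*, which encodes a protein disulfide isomerase of the endoplasmic reticulum.

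By their strain labels, the WT mice were C57BL/6Rj and the KO mice C57BL/6JRj-Txndc5<em2Mdnp>/Ciba. The KO allele was a whole-body deletion of exon 3 made with Cas9 that descends from 1 male founder. Mice of both genotypes came from heterozygous crosses. All were males, 2 months old at the start, fed a purified chow for 4 weeks and fasted for 16 h, and no other treatment was given. Each library was polyA RNA from a pool of 3 livers, with WT pools 1, 2 and 5 and KO pools 2, 3 and 4 (3 libraries per genotype), so the spread between libraries is a spread between pools and single mice were not measured. *Txndc5* itself (chr13:38500079-38528824, GRCm38) was listed at 2697 for WT and at 90.8 for KO, 29.7-fold lower, in the direction its labels give.

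ADH enzymes oxidize ethanol, retinol and other alcohols to aldehydes with NAD. ALDH enzymes carry aldehydes on to acids, and include both the mitochondrial enzyme that clears acetaldehyde and specialised enzymes of proline, lysine, valine, tryptophan, carnitine and folate metabolism. AKR enzymes mostly run the other way, reducing aldehydes, sugars and ketosteroids with NADPH. The hepatocyte is the main site of ethanol oxidation in the body, and of the bile acid and steroid steps that several AKR enzymes carry out. In bulk liver RNA, fewer cells of a type and less RNA per cell cannot be told apart.

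Several members are close copies that sit side by side, so the sequences decide how well their reads can be assigned. Clean reads were 100 bases long. For 32 of the 39 members no run of 100 coding bases occurred in a transcript of another gene (GENCODE M21 annotation of GRCm38). *Akr1c12* and *Akr1c13* of the chromosome 13 cluster shared 134 of their 873 such runs (15.3%) and were identical at 96.2% of 972 coding bases, with an unbroken identical stretch from coding base 34 to 261. *Akr1b3*, aldose reductase, shared 652 of 852 runs (76.5%) with other annotated genes, among them *Gm6644*, *Gm6736* and *Gm12138*. *Aldh4a1* shared 1380 of 1590 (86.8%) with *Gm21969*. *Aldh3b2* shared 286 of 1341 (21.3%) with *Aldh3b3*, which was not analysed here. *Aldh3b1* shared 8 with *Aldh3b3* and *Aldh1a7* shared 1 with *Aldh1a1*. The values of *Akr1c12*, *Akr1c13*, *Akr1b3*, *Aldh4a1* and *Aldh3b2* are therefore uncertain, since how the counting split such reads is not given in the sources used here.

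The stretches below are the 60 coding bases in which each set of paralogs differs most, shown because reads over them tell the copies apart; capitals mark the positions at which the set differs. For *Akr1c12* (chr13:4274392-4275750, minus strand) and *Akr1c13* (chr13:4194767-4196465, plus strand) they are coding bases 343 to 402, across an exon junction, with 9 differences.
Akr1c12: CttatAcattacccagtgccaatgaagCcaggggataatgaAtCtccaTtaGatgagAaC
Akr1c13: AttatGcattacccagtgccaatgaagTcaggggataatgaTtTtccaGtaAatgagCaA
For *Akr1c20* (chr13:4507832-4508212, minus strand) and *Akr1c6* (chr13:4449050-4449327, plus strand), identical at 92.3% of coding bases, they are coding bases 636 to 695, again across a junction, with 12 differences.
Akr1c20: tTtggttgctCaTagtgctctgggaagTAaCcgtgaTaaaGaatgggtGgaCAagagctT
Akr1c6: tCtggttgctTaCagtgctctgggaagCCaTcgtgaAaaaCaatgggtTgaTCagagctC
For the 3 *Akr1b* paralogs on the plus strand of chromosome 6, namely *Akr1b10* (chr6:34394783-34396644), *Akr1b7* (chr6:34421119-34422878) and *Akr1b8* (chr6:34365959-34368158), they are coding bases 882 to 941, across a junction, with 30 differences among the 3. Pairs of these genes were identical at 84.8 to 89.3% of 951 coding bases, and no run of 100 bases was shared.
Akr1b10: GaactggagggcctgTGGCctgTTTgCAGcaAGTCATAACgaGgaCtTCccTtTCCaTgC
Akr1b7: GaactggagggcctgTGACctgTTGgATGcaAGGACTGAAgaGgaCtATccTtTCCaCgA
Akr1b8: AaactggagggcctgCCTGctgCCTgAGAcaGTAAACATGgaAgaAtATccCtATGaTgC

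The deposited table holds 1 value per gene and genotype, on the scale of reads divided by a library size factor. The mean of both values of a gene is the mean over the 6 libraries, but the values themselves lie nearer to each other than the reads of the libraries do. Among 5988 weak genes with recovered reads in both genotypes, the log2 ratio of the deposited values was nearer to 0 in 98.4%, with a median size of 0.239 against 0.446. How far this holds for strong genes cannot be seen. For the 26 stronger members only these genotype values can be had, with no error, so their differences are described without a test. For 13 weak members the whole reads of each library could be worked out from the steps between values. These libraries carry no pool number and are named KO-a, KO-b and KO-c (size factors 1.31, 1.04 and 0.886) and WT-a, WT-b and WT-c (1.22, 0.879 and 0.818) by falling size factor, so a letter pairs nothing across genotypes. KO-a and WT-a stood apart from the other 4: over 3307 genes their deviations from the mean of all 6 libraries had a correlation of 0.474, given as a description over genes, which are not replicates. The libraries had 44040160 to 46050030 clean reads and 0.26 to 0.69% ribosomal RNA. All 7 hepatocyte markers were present, from 12717 for *Hnf4a* to 1329550 for *Alb* in WT, and their median log2 difference was -0.10 (0 of 7 past 0.5 in either direction). Of the red cell markers, 4 of 6 red cell markers were 0.5 or more higher in KO (summed value 118830 in WT and 180430 in KO, none of the 6 at 0), and 2 of 6 Kupffer cell, 0 of 6 endothelial, 1 of 6 stellate and 1 of 5 cholangiocyte markers were so. Another 1 of 6 stellate markers was 0.5 or more lower. Of 14106 genes with a mean of at least 1, 3.23% were higher by this limit and 8.32% lower. *Marco* of Kupffer cells and *Epcam* of cholangiocytes were among the higher markers, but their recovered reads overlapped between genotypes. *Marco* had 69.4 normalized reads in WT-b against 49.2 in KO-b, and *Epcam* 10.2 against 9.65. The part of these cell types in the members' values was not tested.

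By the genotype values, the members covered more than 5 orders of magnitude per kilobase of gene length. Their order by these values was nearly the same in both genotypes. For weak members this likeness is partly built in, since the genotype values lie nearer to each other than the reads do. The 4 members with a mean value under 1 rest on very few reads, so the bottom of the range and its order are uncertain. *Adh1*, the main ethanol-oxidizing ADH of liver, ranked 1st with 24164 in WT and 27100 in KO per kilobase. *Aldh2*, the mitochondrial acetaldehyde dehydrogenase, ranked 2nd with 16374 and 14638, and *Aldh1l1*, the cytosolic formyltetrahydrofolate dehydrogenase, 3rd with 7769 and 7004. These 3 genes made up 63.7% of the summed values of all members in WT and 62.1% in KO, and the 10 with the highest values 90.5 and 90.7%. The members together were 0.821% of the summed values of all genes in WT and 0.871% in KO.

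Ranks 4 to 12 lay close to each other on the per-kilobase scale. *Akr7a5*, which reduces aflatoxin dialdehyde and succinic semialdehyde, stood at 4418 in WT and 3772 in KO. *Akr1a1*, the aldehyde reductase used in ascorbate synthesis, stood at 3974 and 4015, so the order of these neighbours turned between genotypes. *Aldh7a1* of lysine breakdown had 2618 and 2638. *Aldh3a2*, the fatty aldehyde dehydrogenase, had 1997 and 2765 and made the largest shift in rank, by 4 places, from 10 in WT to 6 in KO. *Aldh4a1* of proline breakdown followed with 2250 and 2450, *Adh5* with 2059 and 1929, and *Aldh9a1* of carnitine synthesis with 1852 and 2054. Of the 39 members, 23 kept the same rank by the genotype values. Neighbours whose ratio was as small as 1.01, that of *Aldh3a2* to *Aldh4a1*, cannot be ordered with these data.

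**Figure D1:**
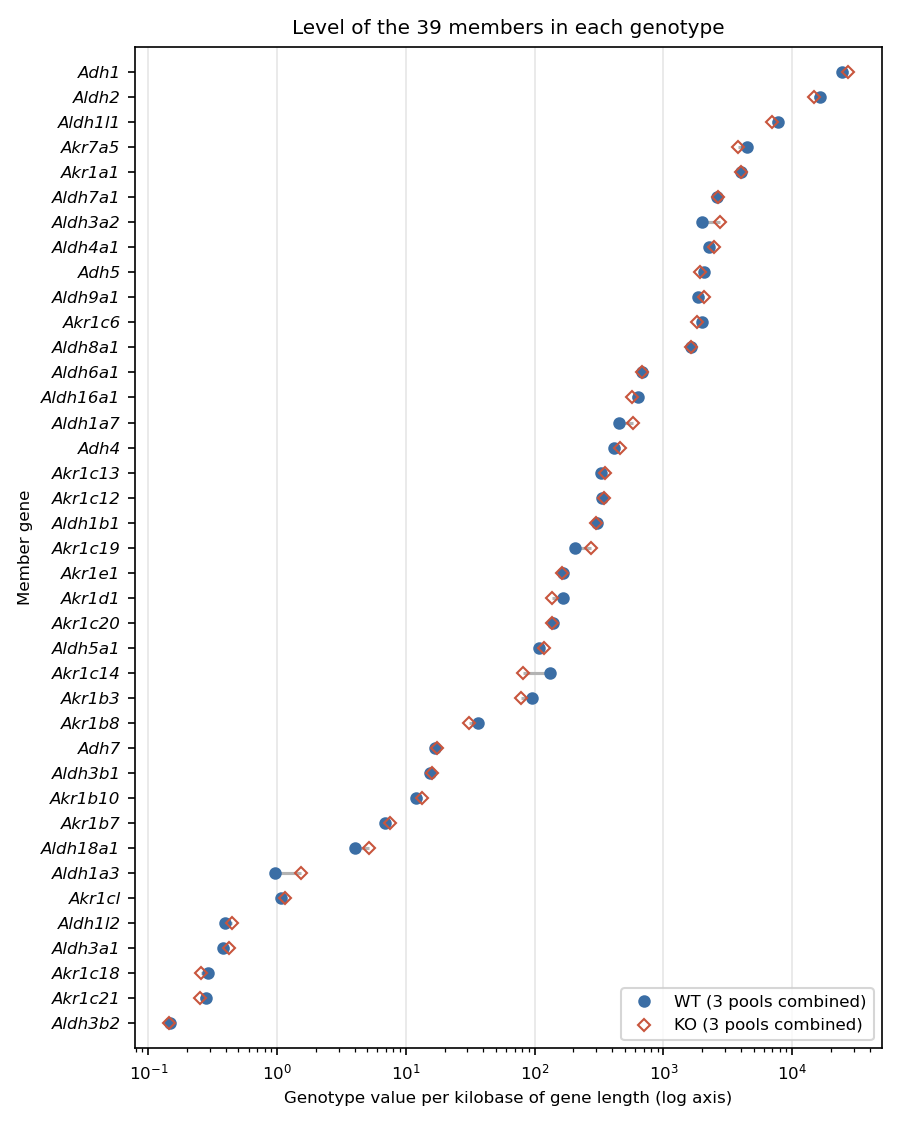
Genotype value per kilobase of gene length (log axis) of the 39 members, ordered by their mean, with filled circles for WT and open diamonds for KO, each the 3 pools combined. *Adh1*, *Aldh2* and *Aldh1l1* lie apart at the top, the 4 members with a mean value under 1 lie at the bottom, and most pairs of symbols overlap.

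Few members differed by much between the genotype values. A difference of 0.5 or more on the log2 scale of the genotype values was used as the limit for description. Only genes whose mean of both values was 1 or more were counted, and 35 members reached this. Of these, 1 was higher in KO (*Aldh1a3*) and 1 lower (*Akr1c14*), beside 3.23% of 14106 genes higher and 8.32% lower. By the ratio of mean recovered reads, which 9 of these members have, 3 were higher (*Aldh1a3* at 1.68, *Akr1cl* at 0.76 and *Aldh18a1* at 0.51) and 0 lower, beside 16.1% of 6046 such genes higher and 29.7% lower. The median log2 difference was 0.05 over the members and -0.05 over all genes. Above 0 lay 21 members and below it 14, beside 5993 and 8113 of the 14106 genes. At a mean of 10 or more, 0 of 31 members were higher and 1 lower, beside 2.48 and 7.9% of genes, and at 100 or more 0 of 26 were higher and 1 lower, beside 1.87 and 3.99%. Of these 26 members, 20 (76.9%) were within 0.25 of 0 on the log2 scale, and 72.7% of all genes of that level were so. This last share is near the background and says nothing particular of the members. The members' split about 0 leaned the other way from that of all genes. It was not tested, since genes are not replicates.

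**Figure D2:**
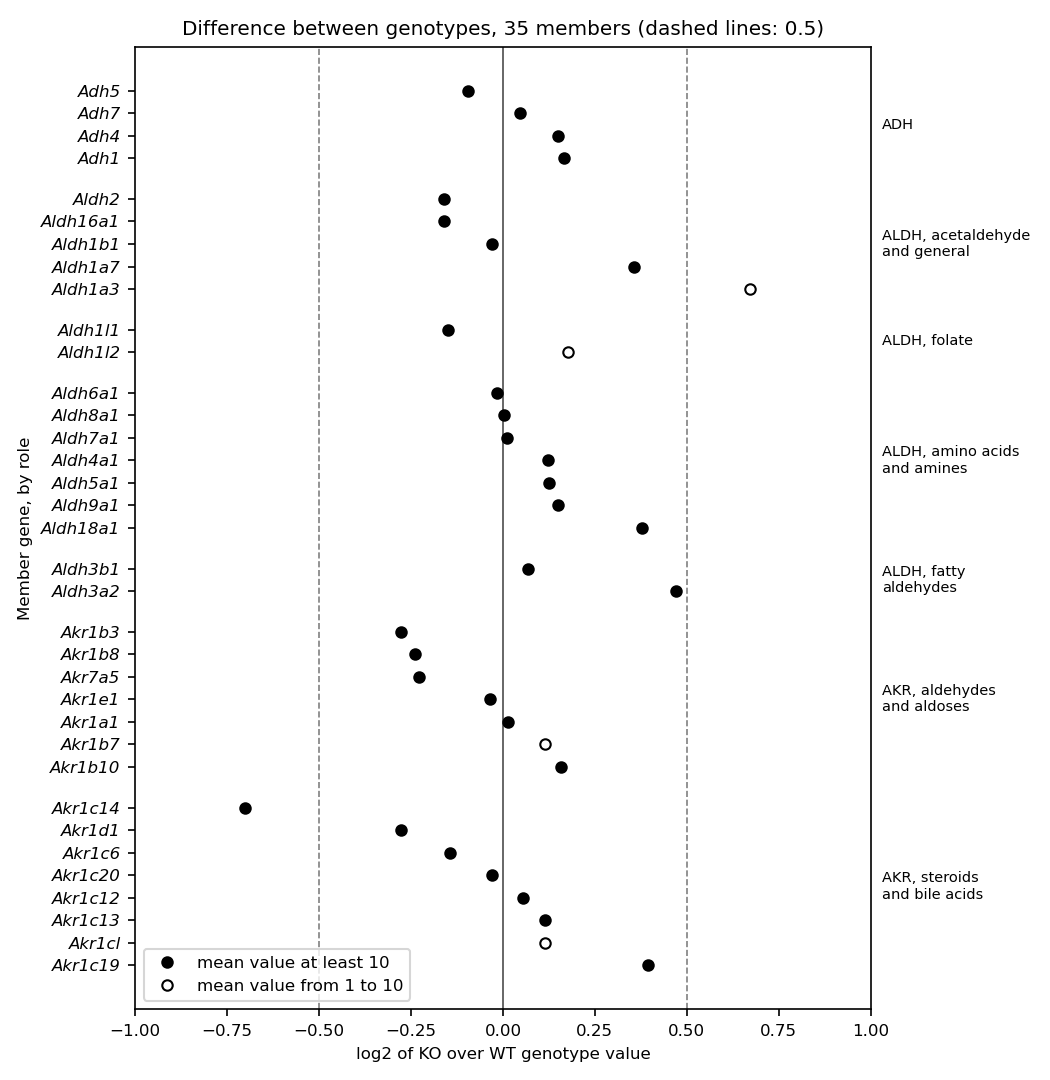
Log2 of the KO over the WT genotype value for the 35 members with a mean value of at least 1, grouped by role and ordered within each role, with dashed lines at 0.5 in both directions and open circles for mean values under 10. *Akr1c14* at -0.70 and *Aldh1a3* at 0.67 lie outside the lines, and *Aldh3a2* at 0.47 lies just inside.

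The 4 ADH genes, which lie together on chromosome 3, all stayed within 0.17 on the log2 scale. *Adh1* (gene 11522, chr3:138260991-138290698) was listed at 32573 for WT and 36531 for KO, a log2 difference of 0.17. *Adh4*, the class II enzyme, had 544 and 604, and *Adh5*, which oxidizes the glutathione adduct of formaldehyde and is made in all tissues, had 3303 and 3093. None of the 4 passed 0.5, and their median log2 difference was 0.10, with 3 above 0 and 1 below.

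*Adh7* (gene 11529, chr3:138217760-138233382), the retinol-oxidizing class IV enzyme best known from stomach, was the weakest of the 4 ADH genes and the one with recovered reads. It had 44 reads in KO-a, 54 in KO-b and 21 in KO-c, against 65, 30 and 14 in WT-a, WT-b and WT-c. Normalized, these were 36.5 ± 14.4 in KO and 34.8 ± 18.0 in WT (SD, n = 3). The groups overlapped fully, with the lowest library of both groups being the one with the smallest size factor, and the difference of mean log2(normalized reads + 1) was 0.13 with a standard error of 0.52 (limma adjusted p = 0.999; exact permutation p = 1, two-sided). It lay between -0.29 without WT-c and 0.50 without WT-a, so its direction rested on single libraries.

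Among the ALDH genes of acetaldehyde and general aldehydes, *Aldh2* (gene 11669, chr5:121566027-121593824) had 46861 in WT and 41895 in KO, a log2 difference of -0.16. *Aldh1b1*, its mitochondrial relative, had 705 and 691. *Aldh16a1*, an unusual member thought to lack the catalytic cysteine, had 1648 and 1475. *Aldh1a7*, a cytosolic close relative of *Aldh1a1*, had 928 and 1189, a log2 difference of 0.36. The left-out *Aldh1a1* had 8110 and 9559.

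*Aldh1a3* (gene 56847, chr7:66390890-66427517), a retinal dehydrogenase weak in liver, was the 1 member past 0.5 upward, at 3.30 in WT and 5.26 in KO. It had 6, 12 and 3 reads in KO-a, KO-b and KO-c, and 3, 0 and 3 in WT-a, WT-b and WT-c. Normalized this was 6.51 ± 4.43 in KO and 2.04 ± 1.87 in WT (SD, n = 3). KO-b was the highest library and WT-b the lowest, and KO-c lay under WT-c, so the groups overlapped. The exact permutation test gave p = 0.2 (two-sided), where 3 libraries against 3 cannot go below 0.1. The difference of mean log2(normalized reads + 1) was 1.42. With each library left out in turn it stayed positive, from 0.75 without WT-b to 1.86 without WT-c. Without both KO-b and WT-b it was 0.30. That alternative was chosen after seeing the data and takes out the highest and the lowest library, so it had to shrink the difference. The mean value of *Aldh1a3* was under 10, and the limit was no longer passed with log2(value + 10).

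The folate pair were far apart in level. *Aldh1l1* (gene 107747, chr6:90486427-90600203) had 24069 in WT and 21699 in KO, a log2 difference of -0.15. *Aldh1l2*, its mitochondrial counterpart, had 2 reads in every library but KO-a, which had 6 (exact permutation p = 0.6, two-sided). The groups did not separate at this depth.

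The 7 ALDH genes of amino acid and amine pathways had a median log2 difference of 0.12 and 6 lay above 0, beside 5993 of 14106 genes. The exception was *Aldh6a1* of valine breakdown at -0.02, which also passed above 0 when differences were centred on the median of all genes. Of the 6, *Aldh7a1* at 0.011 and *Aldh8a1* at 0.002 lay close to 0. *Aldh4a1* (gene 212647) had 7550 in WT and 8220 in KO, with the caution on shared sequence given above. *Aldh7a1* (gene 110695) had 7667 and 7726. *Aldh9a1* (gene 56752, chr1:167349991-167368532) had 5250 and 5822. *Aldh8a1* of the kynurenine pathway had 3650 and 3655, and *Aldh5a1*, the succinic semialdehyde dehydrogenase, 612 and 667. None of the 7 passed 0.5, and no library error can be given for the 6 strongest.

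*Aldh18a1* (gene 56454, chr19:40550257-40588463), which makes the precursor of proline and runs opposite to *Aldh4a1*, was the weakest of the 7. It had 26, 13 and 22 reads in KO-a, KO-b and KO-c, and 10, 13 and 14 in WT-a, WT-b and WT-c. Normalized this was 19.1 ± 6.18 in KO and 13.4 ± 4.65 in WT (SD, n = 3). KO-a and KO-c were above every WT library and KO-b was below both WT-b and WT-c. The difference of mean log2(normalized reads + 1) was 0.49 with a standard error of 0.50 (limma adjusted p = 0.999; exact permutation p = 0.3, two-sided), within the spread of libraries. It stayed positive with each library left out, from 0.20 without WT-a to 0.75 without KO-b.

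Among the ALDH genes of fatty aldehydes and lipid peroxidation products, *Aldh3a2* (gene 11671, chr11:61223417-61267464), which oxidizes long-chain fatty aldehydes, had 6375 in WT and 8828 in KO. Of the 31 members with a mean of 10 or more, its log2 difference of 0.47 was the highest. It fell just short of 0.5, and passed it at 0.52 when centred on the median of all genes, which was -0.05. *Aldh3b1* (gene 67689, chr19:3913491-3929808), a membrane-bound relative, had 24, 33 and 38 reads in KO-a, KO-b and KO-c, and 29, 26 and 28 in WT-a, WT-b and WT-c. Normalized this was 31.0 ± 12.3 in KO and 29.2 ± 5.29 in WT (SD, n = 3). The WT libraries lay inside the range of the KO libraries, and the difference of mean log2(normalized reads + 1) was 0.02 with a standard error of 0.46 (limma adjusted p = 0.999; exact permutation p = 0.9, two-sided). *Aldh3a1*, the corneal crystallin enzyme, had 3 reads in KO and 1 in WT over all libraries, and *Aldh3b2* had 1 in each genotype, which is too few to compare.

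The AKR genes of aldehyde and aldose reduction had log2 differences from -0.28 to 0.16. *Akr7a5* (gene 110198, chr4:139310744-139318426) had 7281 in WT and 6216 in KO, a log2 difference of -0.23. *Akr1a1* (gene 58810, chr4:116636510-116651680) had 5703 and 5761. *Akr1b3*, the aldose reductase of the polyol pathway, had 133 and 110, with the caution on shared sequence. *Akr1e1*, which reduces anhydrofructose, had 289 and 281.

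*Akr1b8* and *Akr1b10*, aldose reductase-like genes whose distinguishing bases are printed above, both had recovered reads. *Akr1b8* (gene 14187, chr6:34354119-34368463) had 60, 41 and 29 reads in KO-a, KO-b and KO-c, and 40, 59 and 37 in WT-a, WT-b and WT-c. Normalized this was 39.3 ± 6.49 in KO and 48.3 ± 17.4 in WT (SD, n = 3). WT-b was the highest and WT-a the lowest of the 6, so the KO libraries fell within the WT range, and the difference of mean log2(normalized reads + 1) was -0.24 with a standard error of 0.41 (limma adjusted p = 0.999; exact permutation p = 0.7, two-sided). It was 0.02 without WT-b. *Akr1b10* (gene 67861, chr6:34384218-34396950) had 28, 15 and 17 reads in KO-a, KO-b and KO-c, and 30, 12 and 7 in WT-a, WT-b and WT-c. Normalized this was 18.3 ± 3.51 in KO and 15.6 ± 8.14 in WT (SD, n = 3), with the KO libraries inside the WT range. The difference of mean log2(normalized reads + 1) was 0.32 with a standard error of 0.51 (limma adjusted p = 0.999; exact permutation p = 0.6, two-sided), and -0.02 without WT-c.

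**Figure D3:**
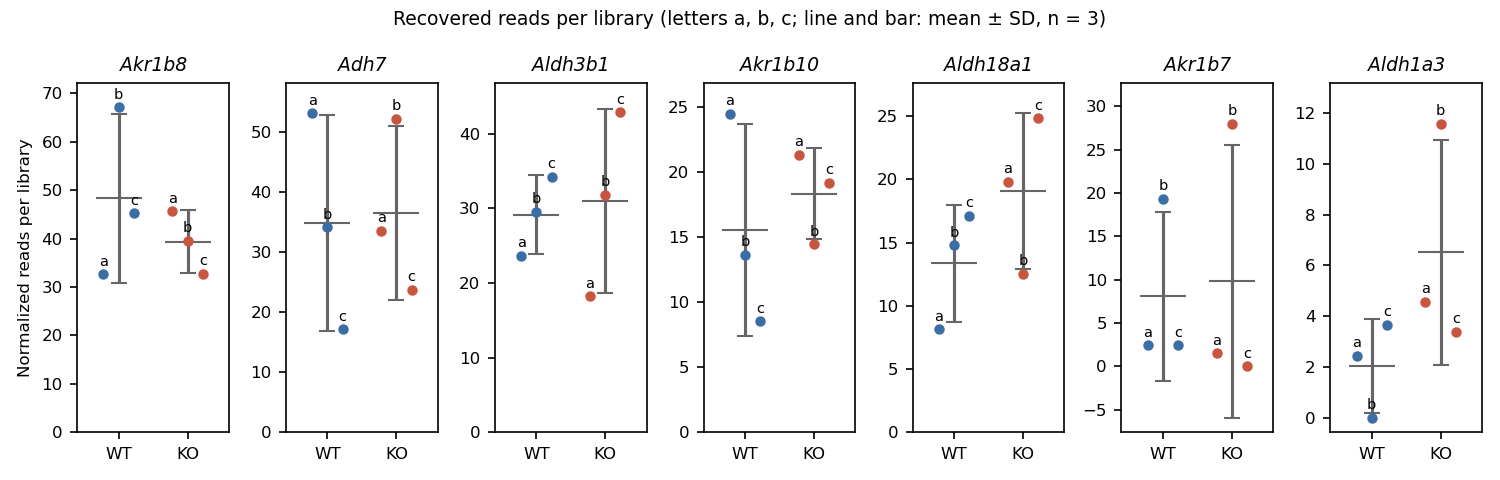
Normalized reads per library (reads divided by the size factor) of 7 members with recovered reads, one panel per gene, with WT in blue, KO in red, letters naming the library, and the line and bar giving the mean and SD (n = 3). The genotypes overlap in every panel, *Akr1b7* is carried by KO-b and WT-b, and *Aldh1a3* is highest in KO-b and at 0 in WT-b.

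*Akr1b7* (gene 11997, chr6:34412334-34423142), an aldose reductase-like protein abundant in adrenal cortex and vas deferens, was found mostly in 2 of the 6 libraries. It had 2, 29 and 0 reads in KO-a, KO-b and KO-c, and 3, 17 and 2 in WT-a, WT-b and WT-c. KO-b and WT-b thus held 88.1% of its normalized reads, against 40.6% of those of *Akr1b8* and 27.7% of those of *Akr1b10*, its neighbours on the chromosome. The mean was 9.84 ± 15.7 normalized reads in KO and 8.08 ± 9.75 in WT (SD, n = 3; exact permutation p = 1, two-sided). The difference of mean log2(normalized reads + 1) had the other sign, at -0.57, and was -1.12 without KO-b and WT-b.

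Genes of adrenal steroid synthesis, listed after this pattern was seen, lay in the same 2 libraries. *Cyp11a1*, which cleaves the side chain of cholesterol, had 37 reads in KO-b, 20 in WT-b and 0 in the other 4 libraries. *Hsd3b1* had 74 and 53, and *Cyp11b1*, the last step to corticosterone, 18 and 22, again with 0 in the other 4. *Star* and *Cyp21a1* had 84.2 and 82.9% of their normalized reads in KO-b and WT-b. Of the 9 adrenal genes listed, *Nr5a1* had 5 and 3 reads there and 0 elsewhere, *Mc2r* 1 read in KO-b and *Cyp11b2* 3 reads in WT-b. The remaining one, *Mrap*, was listed at 1209 for WT and 1037 for KO and had no recovered reads. None of the 7 that reached a mean of 1 differed by 0.5 between genotypes. A summed normalized read count of at least 20 was reached by 5172 genes. Of these, 8 had at least 80% of their normalized reads in KO-b and WT-b, with at least 20% in each. They were *Akr1b7*, *Cyp11a1*, *Cyp11b1*, *Cyp21a1*, *Hsd3b1*, *Star*, *Ucp1* and *Pcdhga6*. The same rule gave 19 genes for KO-a with WT-a, and 0 to 2 for each other pair of a KO and a WT library. The part of other tissue in the *Akr1b7* value was not tested. *Akr1cl*, a weak member, also had all of its reads in KO-b and WT-b, at 6 and 3.

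**Figure D4:**
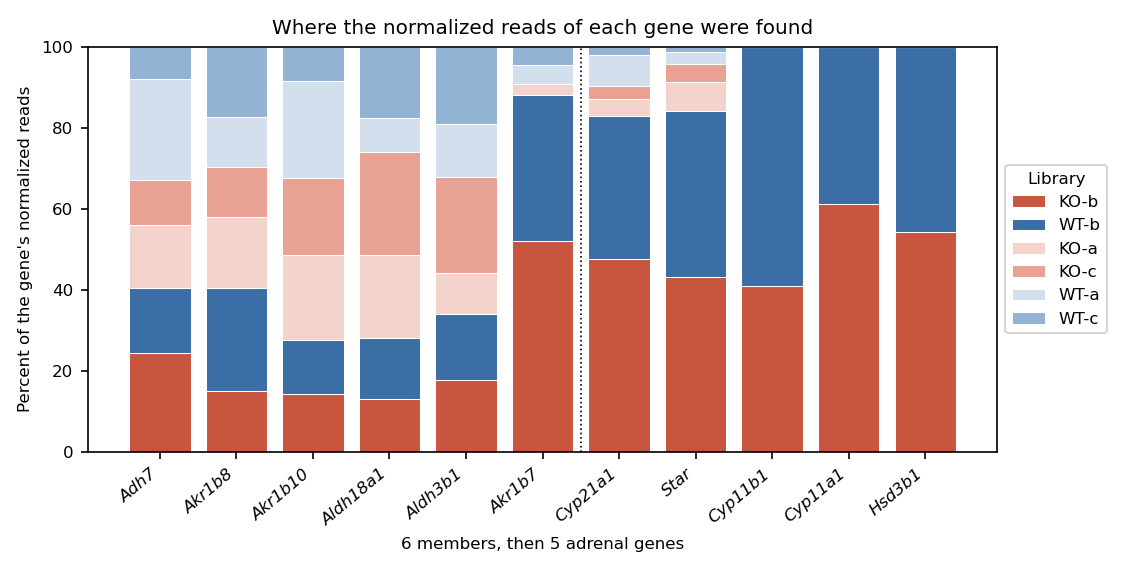
Percent of the normalized reads of each gene found in each of the 6 recovered libraries, for 6 members and, right of the dotted line, 5 adrenal genes. The strong red and blue segments are KO-b and WT-b, which together hold 88.1% for *Akr1b7*, 82.9 to 100% for the adrenal genes and 27.7 to 40.6% for the other 5 members.

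The AKR genes of steroids and bile acids held the largest difference of the 31 members whose mean was 10 or more. *Akr1c14* (gene 105387, chr13:4049011-4090688), a 3-alpha-hydroxysteroid dehydrogenase of liver, had 322 in WT and 198 in KO, a log2 difference of -0.70. It lay 0.5 or more lower under each pseudocount, filter and centring tried, but not with a limit of 1, and no library values can be had for it. At a mean of 100 or more, 282 of 7063 genes were 0.5 or more lower. It shares no run of 100 coding bases with another gene.

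The other genes of the chromosome 13 cluster lay nearer to 0. *Akr1c6*, the strongest of the group and a 17-beta-hydroxysteroid dehydrogenase, had 2723 in WT and 2463 in KO, a log2 difference of -0.14. *Akr1c20*, the close copy of *Akr1c6* printed above, had 184 and 180. *Akr1c19* had 257 and 338, a log2 difference of 0.40 in the other direction. The near-identical *Akr1c12* and *Akr1c13* had 408 and 423, and 402 and 435.

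*Akr1d1*, the steroid 5-beta-reductase of bile acid synthesis, had 450 in WT and 371 in KO, a log2 difference of -0.28. *Akr1c18*, the progesterone-inactivating enzyme of ovary, and *Akr1c21*, a kidney enzyme, each had 1 read in WT-a, 1 in WT-b and 0 in the other 4 libraries, at or under the level at which a difference could be seen. Of the 8 genes of this group that reached a mean of 1, 4 lay above 0 and 4 below, with a median of 0.01.

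The test over libraries called no member. limma was fitted to 3307 weak genes with recovered reads, of which 5 were members (*Adh7*, *Akr1b8*, *Akr1b10*, *Aldh18a1* and *Aldh3b1*). Of all genes, 54 (1.63%) had an unadjusted p under 0.05 and 0 (0%) an adjusted p under 0.05, and 0 of the 5 members passed either, in any of the alternatives. In none of the 13 members with recovered reads did the libraries of the genotypes separate, beside 2.65% of 8063 genes with a sum of at most 400 with every KO library above every WT library and 2.57% with every one below. Among the 3307 genes fitted, to which 5 of the 13 belong, these shares were 3.08 and 2.63%. The standard errors of 0.41 to 0.52 on the log2 scale mean that differences of the size seen here would not have been detectable in these 5 genes. In each of them the log2 ratio of the deposited values was nearer to 0 than that of the mean recovered reads, at 0.38 against 0.51 for *Aldh18a1*. For *Aldh1a3*, which was not among the 5, it was 0.67 against 1.68. The genotype values of these genes were thus nearer to each other than their mean recovered reads. The recovered ratios are themselves uncertain, since the libraries of the genotypes overlapped.

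**Figure D5:**
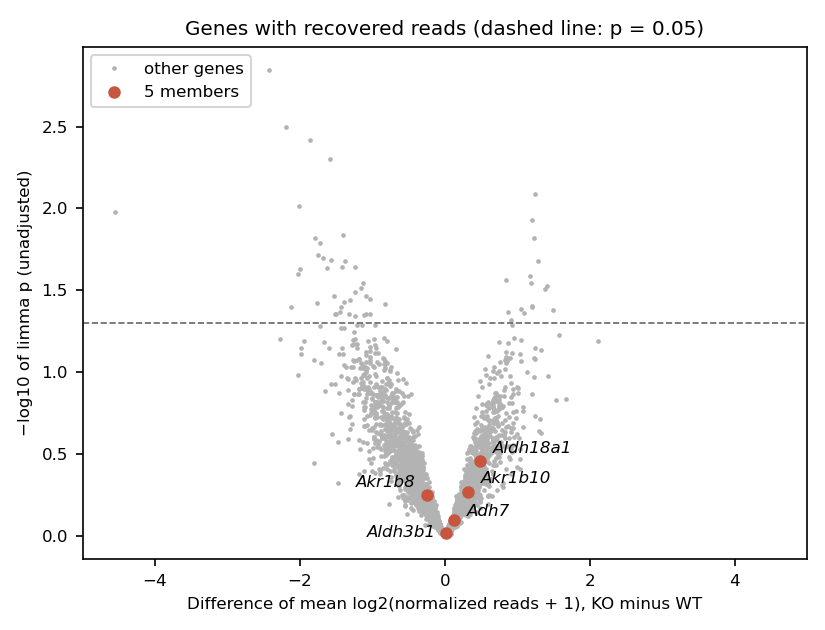
Difference of mean log2(normalized reads + 1), KO minus WT, against the negative log10 of limma's unadjusted significance for 3307 genes with recovered reads (grey) and the 5 members among them (red), with a dashed line at the 0.05 threshold. All 5 members lie in the dense lower part, between -0.24 and 0.49 on the horizontal axis.

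Of 56 other genes of alcohol and carbonyl metabolism in 4 lists, 0 were 0.5 or more higher in KO by the genotype values and 1 lower, beside 3.23 and 8.32% of all genes. The 6 genes of ethanol and acetate use beyond the members had a median log2 difference of 0.00 and a range of -0.24 to 0.20. The 14 other carbonyl oxidoreductases had a median of -0.01, and the 19 short-chain dehydrogenases of retinoids and steroids -0.02. The 17 target genes of NRF2, the factor that induces several AKR genes under oxidative stress, had a median of 0.06. They held the 1 gene past the limit, *Gsta2*, a glutathione transferase. It had 74.9 in WT and 45.1 in KO, a log2 difference of -0.73. Its normalized reads were 34.3, 54.1 and 38.4 in KO-a, KO-b and KO-c, and 44.1, 105.8 and 83.2 in WT-a, WT-b and WT-c. KO-b lay above WT-a, so the groups overlapped.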

How the data were processed

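Liver polyA RNA was sequenced by the authors from 3 WT and 3 KO pools of 3 mice, and the submitters' notes name mm10, HISAT2, StringTie, Cufflinks, GATK, Bowtie2 and RSEM without their roles. The deposited signal values, 1 per genotype, are in units of reads scaled with DESeq2 size factors. The mean of both values of a gene is its mean over the 6 libraries, and their ratio is nearer to 1 than that of the reads, for a reason not given in the sources used here. The authors also deposited their own fold changes, p-values and adjusted p-values, which were not used. Read counts per library and the percent of ribosomal RNA come from the deposited sequencing summary. A splicing summary was not used. No other per-sample column was present.

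Whole reads per library were recovered by finding the 6 whole numbers whose normalized sum gives the deposited mean, in 8063 of 8081 genes (99.8%) with a sum of at most 400. The recovery and the limma script were tested on simulated data. The recovered reads gave the direction of the deposited ratio in 1077 of 1077 genes beyond 0.5. This is not an independent check of the genotype split. The same direction had assigned the libraries to genotypes. Beyond 0.5 it had also chosen between sets of reads where several matched. Genes resolved with a sum from 60 to 400 were fitted with limma 3.58.1 (R 4.3.3, trend on, no covariate) on log2(normalized reads + 1), adjusted by Benjamini-Hochberg over 3307 genes. Single members were compared by two-sided exact permutation tests (Python 3.11.15), which cover only the spread between these pools. Alternatives were other pseudocounts, filters, centring, limits, normalization, a term for KO-a and WT-a, and leaving out libraries. Coordinates and coding bases come from GENCODE M21 (GRCm38).

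Values in full were given for the 10 members highest per kilobase, those with recovered sums of at least 60, and those with a mean of at least 10 and a log2 difference of 0.5 or more. Others were named after their values were seen. The members and the lists (roles, partners, markers of hepatocyte, Kupffer, endothelial, stellate, cholangiocyte and red cells) were chosen with earlier results of these data known. The adrenal and brown fat lists were added later. *Adh6a* and *Adh6b* were not analysed here. The library kit's strandedness is not given in the sources used here, so overlapping antisense reads cannot be told apart.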

Additional observations from a re-analysis of the deposited data

How the results depend on the processing

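The count of members 0.5 or more higher in KO was 1, and became 0 with log2(value + 10), where *Aldh1a3* had 0.198, 0 with a mean value of at least 10, 0 with a limit of 1, and 2 (*Aldh1a3* and *Aldh3a2*) when centred on the median of all genes. It was 3 with the ratio of mean recovered reads where these exist, an alternative chosen after seeing the data. The count lower was 1 and became 0 with a limit of 1. Of the partner genes, 1 (*Rdh9*) was higher when centred, against 0, and 0 were lower with a limit of 1, against 1. The cause was not tested. Centring turned the sign of 5 members (*Akr1c20*, *Akr1e1*, *Aldh1b1*, *Aldh3b2* and *Aldh6a1*), none of them past the limit, and log2(value + 1) and log2(value + 10) that of 0.

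With recovered reads, 0 of the members fitted passed an unadjusted or adjusted p under 0.05 in limma under each of the 12 alternatives. The number of all genes with an unadjusted p under 0.05 ran from 16 without KO-b and WT-b, an alternative chosen after seeing the data, to 251 with a term for KO-a and WT-a, where 2 genes passed the adjusted p. It was 169 without KO-a, 137 without WT-a, 140 without WT-c, 21 without KO-b and 23 without KO-c. With each library left out in turn, the adjusted count of members stayed from 0 to 0.

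No paired analysis was possible because the genotypes share only pool number 2 and neither the deposited columns nor the recovered libraries carry a pool number. Depth limits the 8 recovered members with a sum under 60 most, and for the 26 without recovered reads no error can be given at all. How reads were split between near-identical genes is not known.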

Other observations

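Values that belong to no comparison of the members follow. The pseudogene *Adh6-ps1* was listed at 128 for WT and 95.1 for KO, a log2 difference of -0.43. *Aldh1a2*, left out with *Aldh1a1*, had 0, 2 and 0 reads in KO-a, KO-b and KO-c, and 2, 4 and 2 in WT-a, WT-b and WT-c. Of the 5 brown fat genes listed after the data were seen, *Ucp1*, the uncoupling protein of brown fat, had 7, 11 and 0 reads in KO-a, KO-b and KO-c, and 0, 11 and 0 in WT-a, WT-b and WT-c. *Cidea* had 15, 20 and 0, and 0, 15 and 1. *Cox7a1* and *Cox8b* had reads in all 6 libraries, and *Dio2* 3 reads in WT-b. The genotype values of these 5 genes summed to 30.7 in WT and 31.5 in KO.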
